A study of Homo sapiens with 6 samples.

Results

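The AP-1 factors of the FOS and JUN families were compared between 2 human cell lines on Illumina expression arrays, together with the related genes ATF3 and MAFF. The family was taken as 9 genes, FOS, FOSB, FOSL1, FOSL2, JUN, JUNB, JUND, ATF3 and MAFF, and every probe whose platform symbol is one of them was included. These were 9 of the 20046 genes with a named probe, read by 13 of the 47231 probes on the array. A probe was counted as measured where its detection value, which is 1 minus the detection p against the array's negative controls, was above 0.99 on all 3 arrays of at least 1 line. Of the 13 probes 11 were measured, and each of the 9 genes had at least 1 of them.

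The lines were C28, labelled as chondrocytes and as the control, and JJ012, labelled as chondrosarcoma, a malignant tumour of cartilage. Each line had 3 arrays, numbered 1 to 3 in the labels. Both lines had the same handling, with 5000000 cells seeded per dish and 24 h in the incubator before lysis in Qiazol and purification of total RNA, and the labels name no genotype change or drug. Whether the 3 arrays of C28 or of JJ012 stand for separate cultures is not stated, and the p-values therefore measure only a spread between arrays that may be technical. The design text asks how messenger RNA differs between the tumour line and the control line, as a follow-up to a microRNA comparison that was not used here.

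AP-1 is a DNA-binding dimer of proteins with a basic region and a leucine zipper. JUN proteins can pair with one another, whereas FOS proteins need a JUN partner. FOS, FOSB, JUN, JUNB, ATF3 and MAFF are known as immediate early genes, which cells switch on within minutes of a growth factor or a stress and whose RNA is short-lived. FOSL1 follows more slowly after ERK signalling, and JUND is made more steadily. In cartilage and other connective tissue AP-1 is known for driving matrix protease genes, and the gene FOS was first found as the oncogene of a mouse bone tumour virus.

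The promoters of the 4 called genes with an entry in RefSeq's table are shown to set out which sites for AP-1 itself and its relatives lie beside the start. Each runs from 250 bases before the gene's start to 50 bases after it, on build GRCh38.p14. Of the 9 genes 8 had an entry, ATF3 and MAFF with 2 promoters each, and FOSL1 is named only. Capitals mark 4 motifs sought on both strands. These were the AP-1 site TGANTCA, the CRE-type site TGACNTCA, the CArG box and the TATA box TATAAA. The FOS promoter lies on the plus strand at chr14:75278578-75278877, that of FOSB on the plus strand at chr19:45467746-45468045, that of JUN on the minus strand at chr1:58783998-58784297 and that of JUND on the minus strand at chr19:18281573-18281872.
FOS: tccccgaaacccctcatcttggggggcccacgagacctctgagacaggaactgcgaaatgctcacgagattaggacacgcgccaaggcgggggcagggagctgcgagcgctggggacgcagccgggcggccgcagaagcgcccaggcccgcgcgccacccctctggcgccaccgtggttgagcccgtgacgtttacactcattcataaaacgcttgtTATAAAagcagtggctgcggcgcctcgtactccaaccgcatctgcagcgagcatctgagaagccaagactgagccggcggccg
FOSB: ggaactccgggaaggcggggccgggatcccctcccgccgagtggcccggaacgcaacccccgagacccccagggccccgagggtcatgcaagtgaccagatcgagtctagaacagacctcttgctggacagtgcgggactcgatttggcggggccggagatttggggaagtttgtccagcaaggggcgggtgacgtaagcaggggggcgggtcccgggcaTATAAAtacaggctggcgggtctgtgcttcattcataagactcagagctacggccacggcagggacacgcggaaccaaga
JUN: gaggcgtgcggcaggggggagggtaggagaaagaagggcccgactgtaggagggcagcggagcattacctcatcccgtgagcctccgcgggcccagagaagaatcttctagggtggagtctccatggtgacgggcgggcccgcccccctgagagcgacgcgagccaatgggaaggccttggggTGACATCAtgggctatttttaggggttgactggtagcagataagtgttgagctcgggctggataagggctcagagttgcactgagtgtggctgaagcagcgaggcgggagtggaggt
JUND: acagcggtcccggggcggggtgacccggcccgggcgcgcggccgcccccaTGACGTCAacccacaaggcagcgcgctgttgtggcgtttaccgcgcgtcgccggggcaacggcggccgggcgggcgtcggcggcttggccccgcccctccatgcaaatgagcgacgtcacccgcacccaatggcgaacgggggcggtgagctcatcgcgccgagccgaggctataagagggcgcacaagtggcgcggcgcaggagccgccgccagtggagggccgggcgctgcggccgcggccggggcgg

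FOS and FOSB each carry a TATA box in this window, beginning 33 and 30 bases before the start, and JUNB has one at 31 bases. JUN carries a CRE-type site that begins 67 bases before its start, and JUND one at 200 bases. Over the family, a CRE-type site was found in 4 of 10 promoters, a TATA box in 4, an AP-1 site in 1, that of FOSL2, and a CArG box in 0. The remaining TATA match, in 1 ATF3 promoter, begins 230 bases before the start, far from the place of those in FOS, FOSB and JUNB. The AP-1 site of FOSL2 begins 4 bases after the start. The shares over all 35116 promoters of the table were 7.72% for the CRE-type site, 11.5% for the TATA box, 7.71% for the AP-1 site and 1.29% for the CArG box. No match of one motif overlapped a match of another in these genes. A match is a description of the letters, and a missing match says only that the letters are not in this window.

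JJ012 arrays differed in their signal at probes that were bright in C28. The comparison used 95 probes that C28 read brightly and JJ012 replicate 2 did not detect. JJ012 replicate 1 detected all 95, at a median of 9.14% of the level in C28, with a 10th percentile of 7.88% and a 90th of 11.1%. JJ012 replicate 3 detected 64 of them and read 2.67%, and JJ012 replicate 2, off by selection, 0.719%. Whether these readings stem from C28 RNA or from expression by JJ012 itself was not tested. In the other direction C28 arrays read 0.656% to 1.04% of the JJ012 mean over 49 probes, with C28 replicate 3 off by selection. The arrays detected 17826 to 19332 probes each and had median intensities of 84.4 to 101.6. Of 15 chondrocyte markers with a probe, 11 were detected on no array, among them ACAN, while SOX9 was detected on every array. Mesenchymal markers were detected on all arrays of C28 for 9 of 10 genes and on all arrays of JJ012 for 7, and epithelial markers for 3 and 1 of 9. Of 6 blood cell markers CD14 and CD68 were detected on every array and PTPRC on none, and the summed level of the 6 was 1516 to 1825 in C28 and 6617 to 8420 in JJ012. The 2 detected genes went opposite ways, CD68 from a mean log2 signal of 9.84 in C28 to 12.80 in JJ012 and CD14 from 9.38 to 6.66. Of 5 endothelial markers PECAM1 was detected on all JJ012 arrays and the other 4, CDH5 among them, on no array. The part of such differences in the results below was not tested. A higher signal of a line may come from more cells that express a gene or from more RNA per cell, which cannot be told apart here.

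FOS, FOSB, FOSL1 and JUN were higher in JJ012 and JUND was lower, while JUNB, FOSL2, ATF3 and MAFF were not called. FOS was 5.20-fold higher, FOSL1 4.59-fold, FOSB 3.28-fold and JUN 2.83-fold, and JUND was 2.15-fold lower. A gene was called from its brightest measured probe at an adjusted p under 0.05 with a change of at least 2-fold, in limma's fit over all 19384 measured probes. By this rule 4 of 9 AP-1 genes were higher and 1 lower, whereas 13.7% of all 11515 tested genes were higher and 17.6% lower, 31.3% in all. The family was chosen with earlier results of these data known, so this contrast is no independent result. The median log2 fold change was 0.71 over the 9 genes and −0.04 over all genes. The first is the value of MAFF from its brightest probe, and with either other MAFF probe it becomes that of FOSL2, 0.37. Values of the lines did not overlap in 7 of 9 genes, against 76.2% of all genes, so that count is close to the background. With no minimum fold 7 of 9 AP-1 genes passed, against 71.9% of all genes. Counted over probes, 5 of 11 were called, 4 higher and 1 lower, beside 29.8% of all measured probes (13.9% higher and 15.9% lower). The values of 8 of 11 did not overlap, against 74.2%, and 8 of 11 passed with no minimum fold, against 70.2%.

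**Figure D1:**
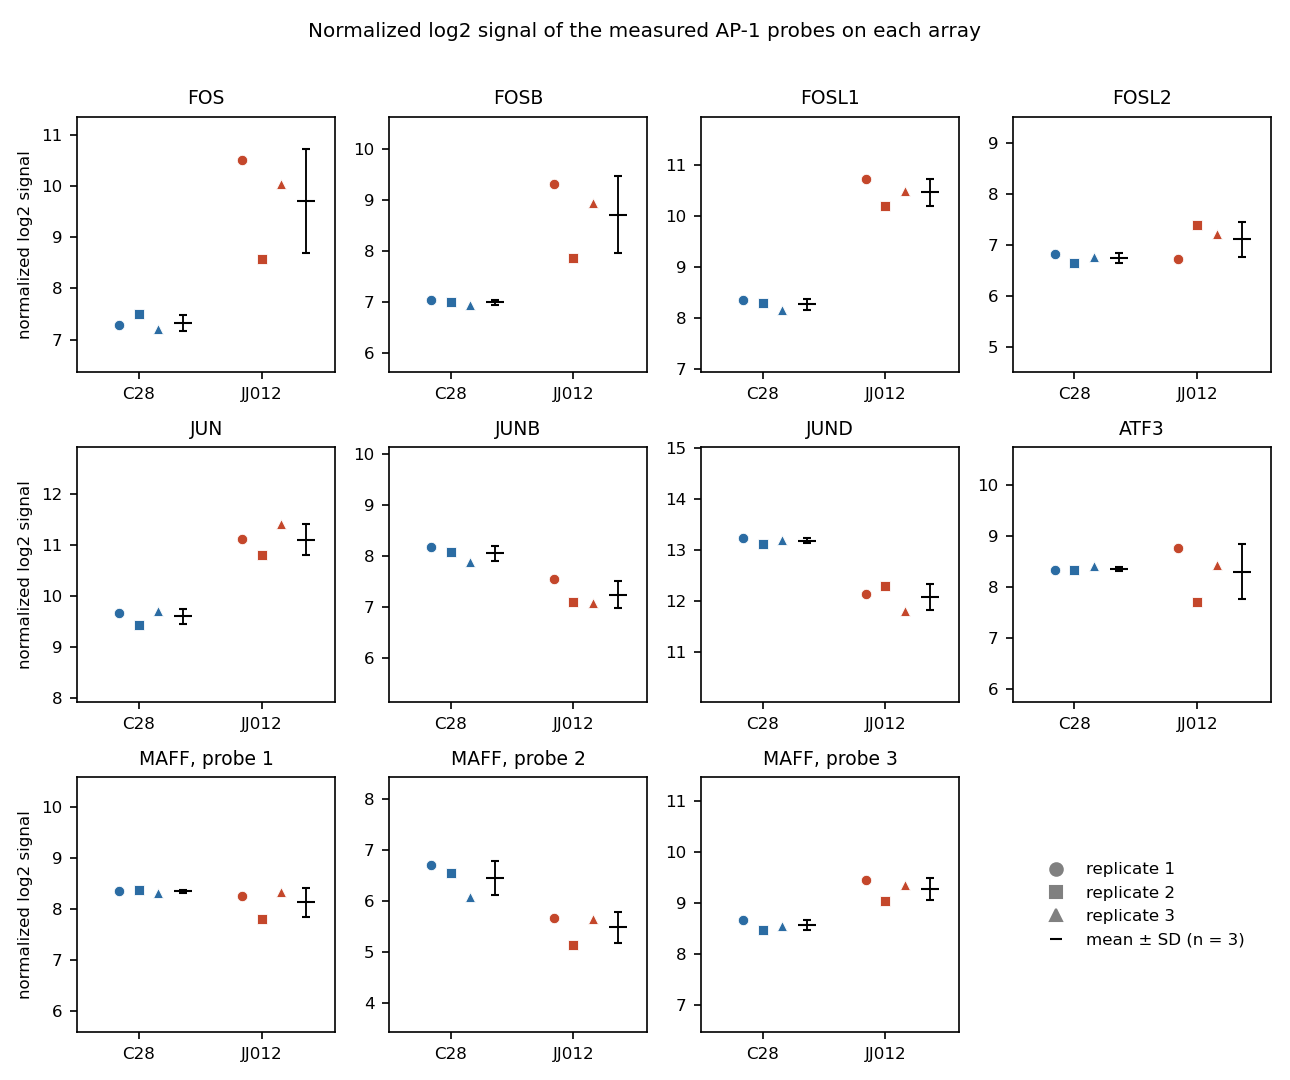
Normalized log2 signal (y axis) of the 11 measured AP-1 probes in C28 (blue) and JJ012 (red), with 1 symbol per array, shaped by replicate number, and the mean ± SD of 3 arrays in black. All panels span the same range of log2 units, and MAFF probes 1, 2 and 3 are ILMN_1680139, ILMN_1700413 and ILMN_2322375. JJ012 replicate 2 stands below the other JJ012 arrays for FOS and FOSB, at 8.57 and 7.87.

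FOS, the founding partner of JUN, and FOSL1 gave the largest changes of the FOS family, and their order depended on the arrays. FOSL1 was ahead of FOS without JJ012 replicate 1, at 2.07 against 1.98, and with JJ012 replicate 2 alone, at 1.91 against 1.24. The normalized log2 signal of FOS was 7.28, 7.51 and 7.21 on C28 replicates 1, 2 and 3, and 10.52, 8.57 and 10.05 on JJ012 replicates 1, 2 and 3. Every JJ012 array lay above every C28 array, but JJ012 replicate 2 lay closer to C28 than the other JJ012 arrays did. The log2 fold change was 2.38 (SE 0.43, 95% interval 1.38 to 3.38, adjusted p = 0.00136), which placed FOS 334th from the top among 11515 genes. As deposited, before background correction and scaling, the FOS intensity was 257.4, 248.4 and 226.6 in C28 and 1365, 373.6 and 1081.4 in JJ012.

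FOSB, a close relative of FOS, had the same order of arrays. It read 7.04, 7.01 and 6.94 in C28 and 9.32, 7.87 and 8.94 in JJ012, again without overlap and with JJ012 replicate 2 the lowest. The log2 fold change was 1.71 (SE 0.32, 95% interval 0.97 to 2.46, adjusted p = 0.00168). The array has 1 FOSB probe, and the files do not say which transcript forms of FOSB it reads.

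FOSL1, which encodes FRA1, a FOS relative known from invasive tumour cells, was higher on all JJ012 arrays with little spread. C28 read 8.37, 8.29 and 8.16, and JJ012 read 10.73, 10.20 and 10.49. The groups stood apart by more than 1 log2 unit, and the order of the JJ012 arrays was that of FOS and FOSB. The difference between lines, 2.20 log2 units (SE 0.15, 95% interval 1.86 to 2.53, adjusted p = 5.54e-06), had the smallest adjusted p of the family.

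FOSL2, which encodes FRA2, was the FOS gene without a call. It read 6.83, 6.64 and 6.76 in C28 and 6.74, 7.38 and 7.22 in JJ012, where replicate 1 lay within the C28 values. The log2 fold change was 0.37 (95% interval −0.02 to 0.76, adjusted p = 0.0807), an interval that excludes a 2-fold change in either direction. Here JJ012 replicate 2 was the highest JJ012 array.

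JUN, the best known partner of FOS proteins in AP-1, was higher in JJ012. It read 9.67, 9.44 and 9.71 in C28 and 11.12, 10.80 and 11.41 in JJ012. All JJ012 arrays lay above all C28 arrays by more than 1 log2 unit. The log2 fold change was 1.50 (SE 0.16, 95% interval 1.13 to 1.88, adjusted p = 7.25e-05).

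JUNB and JUND, JUN relatives that are known to restrain growth in several cell types, both read lower in JJ012 without overlap, and only JUND was called. JUND read 13.23, 13.13 and 13.19 in C28 and 12.13, 12.30 and 11.81 in JJ012. Its log2 fold change was −1.10 (SE 0.14, 95% interval −1.42 to −0.79, adjusted p = 0.000152). JUNB read 8.18, 8.09 and 7.88 in C28 and 7.55, 7.09 and 7.09 in JJ012. At a difference of −0.81 log2 units (SE 0.15, 95% interval −1.16 to −0.46, adjusted p = 0.00162) it missed the 2-fold limit. The JUND call rested on JJ012 replicate 3, since the log2 fold change was −0.96 without it, and it was −0.87 when JJ012 replicate 2 alone stood for JJ012. With arrays scaled to a common median, which took the median difference over the tested genes from −0.04 to −0.23, JUNB reached −1.05 and was called.

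**Figure D2:**
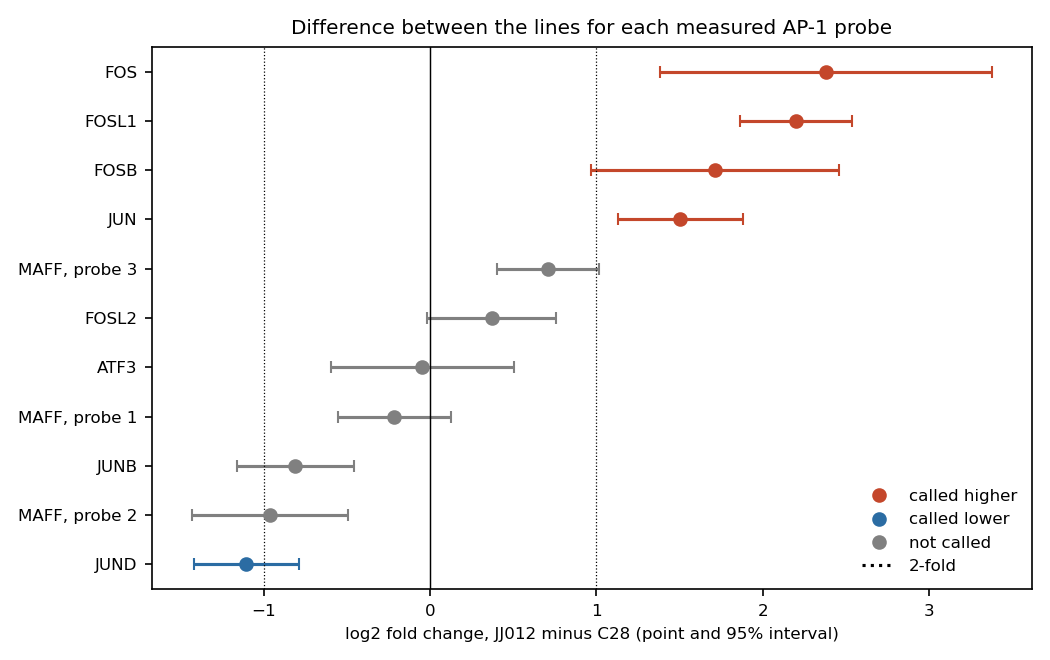
Log2 fold change of JJ012 minus C28 (x axis) for the 11 measured AP-1 probes, ordered by size, with the 95% interval from limma. Dotted lines mark 2-fold, and colours give the call. The 4 probes to the right, of FOS, FOSL1, FOSB and JUN, were called higher and JUND, at −1.10, was called lower.

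ATF3, a stress-induced factor that pairs with JUN, did not differ by more than its spread. Its measured probe, ILMN_2374865, read 8.33, 8.33 and 8.41 in C28 and 8.77, 7.72 and 8.43 in JJ012. The C28 arrays were within 0.08 log2 units of each other, while the JJ012 arrays spanned 1.05 and lay on both sides of C28. The log2 fold change was −0.05 (95% interval −0.60 to 0.50, adjusted p = 0.867). It turned to 0.25 when JJ012 replicate 2 was left out and was −0.64 when that array alone stood for JJ012. The other 2 ATF3 probes were not detected on any array, with intensities of 54.1 to 80.7.

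MAFF, a small MAF protein with a zipper but no activation domain, was read by 3 probes that disagreed. ILMN_2322375, the brightest, read 8.68, 8.48 and 8.56 in C28 and 9.46, 9.04 and 9.35 in JJ012. Its log2 fold change of 0.71 (adjusted p = 0.00155) was under 2-fold. ILMN_1680139 read 8.35, 8.36 and 8.31 in C28 and 8.25, 7.79 and 8.33 in JJ012, and its difference of −0.21 on the log2 scale had an adjusted p of 0.225. ILMN_1700413 read 6.72, 6.55 and 6.08 in C28 and 5.68, 5.14 and 5.65 in JJ012, where it was detected on 1 array. Its difference was −0.96 (adjusted p = 0.00311), and 6 alternatives called it lower, among them no minimum fold and leaving out C28 replicate 3, JJ012 replicate 1 or JJ012 replicate 3. The brightest probe was thus above C28 on every JJ012 array and the dimmest below C28 on every JJ012 array. No direction can be given for MAFF as a gene, and the place of each probe in the transcript was not given in the sources used here.

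The spread of the JJ012 arrays was itself uneven in this family, and in some of the lists below. JJ012 replicate 2 was the lowest JJ012 array in 6 of 9 genes, FOS, FOSB, FOSL1, JUN, ATF3 and MAFF, compared with 36.5% of all genes. In the lists below the share was 70.8% of AP-1 targets and 67.6% of other immediate early genes. It was 53.8% of leucine zipper partners and 30.4% of upstream genes. FOS on JJ012 replicate 2 was 3.28-fold below the mean log2 signal of the other two JJ012 arrays, and FOSB 2.40-fold. These were the 2 AP-1 genes at least 2-fold lower on that array, a difference found in 1.48% of all genes. Of the measured genes of the lists below, 4 of 24 AP-1 targets and 1 of 34 other immediate early genes showed it. No leucine zipper partner or upstream gene did. Of these targets MMP3 was higher in JJ012 than in C28. The others, PLAU and MMP1 among them, were lower in JJ012, as was the immediate early gene, DUSP6. In the lower genes JJ012 replicate 2 lay furthest from C28, whereas for FOS and FOSB it lay nearest. The shares above count genes higher and lower in JJ012 together. ATF3 was 1.85-fold lower on JJ012 replicate 2, JUN 1.38-fold and FOSL1 1.33-fold. The 3 C28 arrays spanned at most 0.30 log2 units for the brightest probe of each of the 9 genes, but 0.64 for the MAFF probe ILMN_1700413, which spanned 0.54 over JJ012.

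**Figure D3:**
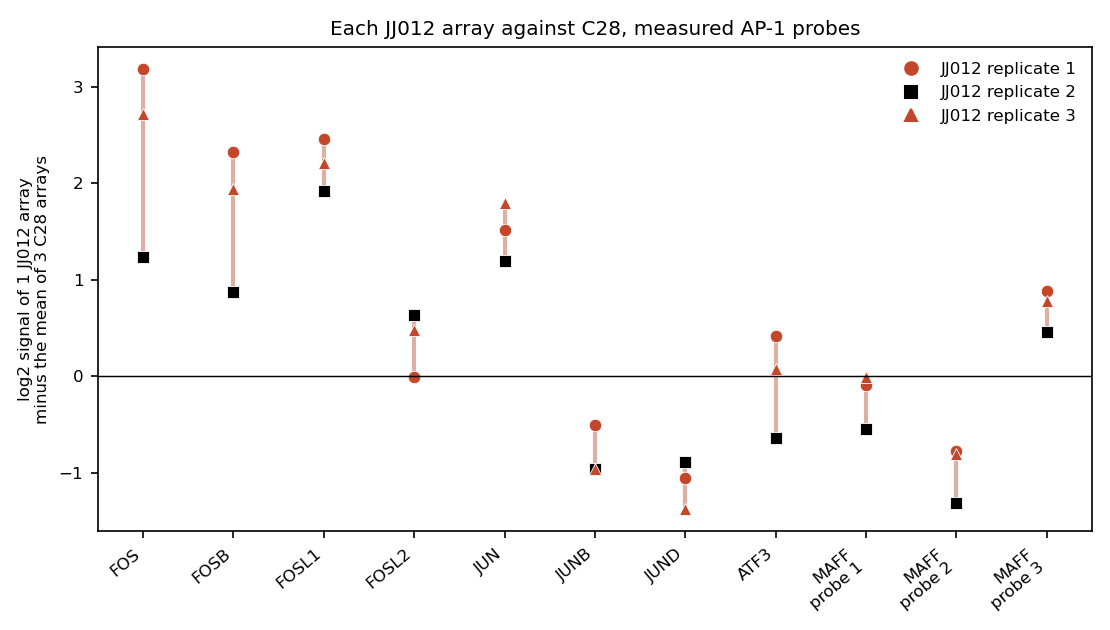
Log2 signal of each JJ012 array minus the mean of the 3 C28 arrays (y axis) for the 11 measured AP-1 probes (x axis), with JJ012 replicate 2 as black squares and replicates 1 and 3 as red circles and triangles. Lines join the lowest and highest JJ012 array. FOS ran from 1.24 on replicate 2 to 3.18 on replicate 1, and FOSB from 0.87 to 2.33.

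For FOS, FOSB, FOSL1 and JUN all C28 arrays lay below JJ012 replicate 2, and JJ012 replicates 1 and 3, which read 9.14% and 2.67% of C28 over the 95 probes above, lay higher still. Any part of C28 signal in the order of the JJ012 arrays was not tested. Setting JJ012 replicate 2 alone against C28 gave log2 fold changes of 1.24 for FOS, 0.87 for FOSB, 1.91 for FOSL1 and 1.19 for JUN, and FOSB then lost its call. That fit takes the spread of C28 for JJ012 as well. With JJ012 replicate 1 left out the values were 1.98 for FOS, 1.41 for FOSB, 2.07 for FOSL1 and 1.50 for JUN, and with JJ012 replicate 2 left out they were 2.94, 2.13, 2.32 and 1.66.

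HTN1, RN7SK, RNA5S9, ITGA2 and ID2 were the 5 genes nearest to FOS among 11514 others, by Euclidean distance between values centred on the mean of the 6 arrays. Their distances were 0.51, 0.56, 0.65, 0.70 and 0.78 log2 units. RN7SK, a small nuclear RNA that holds back transcript elongation, read 9.11, 9.10 and 8.80 in C28 and 12.41, 10.37 and 12.32 in JJ012. The collagen-binding integrin gene ITGA2 read 6.46, 6.59 and 6.45 in C28 and 9.53, 8.46 and 9.35 in JJ012. HTN1, a salivary peptide gene, was not detected on any C28 array. RN7SK and the ribosomal RNA gene RNA5S9 give RNA without a natural poly(A) tail, and both have many near copies in the genome that a probe may read. The part of RNA quality or labelling in the low FOS value of JJ012 replicate 2 was not tested.

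**Figure D4:**
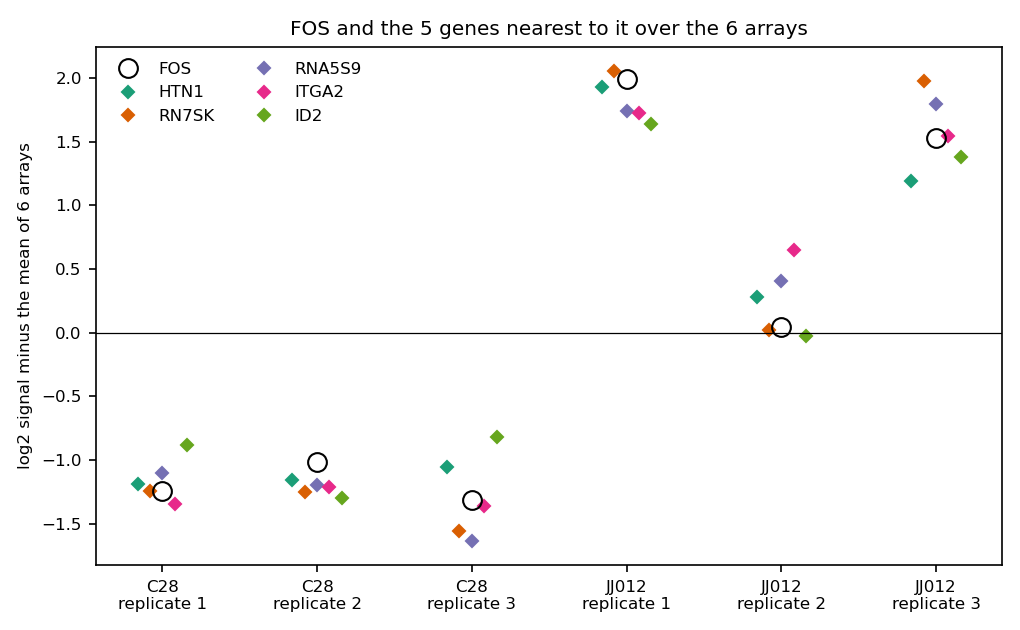
Log2 signal minus the mean of the 6 arrays (y axis) on each array (x axis) for FOS (open circles) and the 5 genes nearest to it (diamonds, shifted sideways for legibility). On JJ012 replicate 2 all 6 genes lie between their C28 values and those on JJ012 replicates 1 and 3. The 5 genes were picked for nearness to FOS over these same arrays, so this likeness is no separate result.

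Of the other immediate early genes, which respond to the same stimuli as FOS, 34 of 43 listed were measured. In JJ012 11 were higher, 4 lower and 19 not called, 44.1% called beside 31.3% of all genes, and their median log2 fold change was 0.76. This list, like the other lists and the AP-1 family itself, was chosen with earlier results of these data known. KLF2, a zinc finger factor, rose by 2.44 log2 units (SE 0.09, adjusted p = 3.43e-07), the small GTPase gene GEM by 2.40 (SE 0.12) and DUSP5, a nuclear phosphatase of ERK, by 2.35 (SE 0.15). GADD45B at 2.19 and DUSP1, a MAP kinase phosphatase, at 1.71 also rose, and these 2 were named after their values were seen. EGR1, which is induced together with FOS in many cells, went the other way, at −1.32 log2 units (SE 0.25, adjusted p = 0.00193).

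EGR1 read 10.74, 10.76 and 10.39 in C28 and 9.70, 8.69 and 9.55 in JJ012, with JJ012 replicate 2 the lowest. That array was thus the furthest from C28 for EGR1 but the nearest for FOS. DUSP6, a phosphatase that limits ERK in the cytoplasm, read −3.51 log2 units from C28 (SE 0.50, adjusted p = 0.00035) and NFKBIZ −2.07 (SE 0.23). The other measured DUSP6 probe read −2.38 and was also called lower. DUSP6 reached 17.5% of its C28 level on JJ012 replicate 1, 2.99% on replicate 2 and 5.46% on replicate 3. The median over the 95 probes above was 9.14% on JJ012 replicate 1. MYC read 0.99 (SE 0.19, adjusted p = 0.00208) and just missed 2-fold, while another MYC probe, at 1.06, was called. Without JJ012 replicate 2 the first probe read 1.20 and without C28 replicate 2 it read 1.02, and both were called. JJ012 replicate 2 was the lowest JJ012 array in 23 of the 34 genes, or 67.6%, compared with 36.5% of all genes, but only 1 of them, DUSP6, was at least 2-fold lower there.

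Of the partners and relatives of AP-1 with a basic leucine zipper, 13 of 21 listed were measured. In JJ012 2 were higher, 1 lower and 10 not called, 23.1% called beside 31.3% of all genes. BATF, which pairs with JUN and is known from lymphocytes, was not detected on any C28 array and was at least 7.68-fold higher in JJ012 (adjusted p = 3.12e-07), at 8.20, 8.66 and 8.40. CREB5 rose by 1.94 log2 units (SE 0.16, adjusted p = 1.65e-05), and its other measured probe read 1.35. ATF5, at −1.04 (SE 0.11, adjusted p = 6.57e-05), was close to the 2-fold limit and lost its call under 6 alternatives. Over the 13 genes the median difference was −0.10. JDP2, which opposes JUN, read −0.42, BATF3 −0.10 and NFE2L2 −0.31, all without a call and named after their values were seen.

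The upstream genes were the MAP kinases, the serum response factor with its partners and the ubiquitin ligases of JUN. Of 28 listed 23 were measured, with 2 higher, 2 lower and 19 not called, 17.4% called beside 31.3% of all genes. Their median log2 fold change was −0.01. With no minimum fold 8 of the 23 were higher and 9 lower, where 71.9% of all genes passed. The values of 19 of the 23 did not overlap, against 76.2% of all genes, so both counts are near the background. MAPK8, which encodes the kinase JNK1 that phosphorylates JUN, read 0.29 (adjusted p = 0.108), and SRF, which binds the FOS promoter, −0.09 (adjusted p = 0.504). The only measured MAPK8 probe is annotated to a record outside RefSeq, and whether it reads the coding transcript was not settled. FBXW7, part of a ubiquitin ligase for JUN, read 1.00 (SE 0.25, adjusted p = 0.00805), below the 2-fold limit, and its other probe read 0.52. Leaving out JJ012 replicate 2 took FBXW7 to 1.27 and leaving out C28 replicate 2 to 1.18, both called. MAP3K5, a stress kinase of the JNK pathway, rose by 1.78 (SE 0.25, adjusted p = 0.000298) and ELK3, an SRF partner, by 1.09 (SE 0.15). RPS6KA3 fell, with a log2 fold change of −1.41 (SE 0.13), as did MAPK7 with −1.02 (SE 0.09). The 2 dimmer probes of RPS6KA3 read −0.88 and −0.77 and were not called. ELK3 lost its call under 6 alternatives and MAPK7 under 4, both near the 2-fold limit.

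Genes known as AP-1 targets in other cells differed between the lines in both directions. Of 34 listed 24 were measured, and 9 were higher, 11 lower and 4 not called. The share called was 83.3%, beside 31.3% of all genes, and the median log2 fold change was −0.31, since the calls were split. This share is no independent result, since the list was chosen with earlier results of these data known. Of its measured genes 4, all called, were detected on all arrays of 1 line and none of the other. MMP3, a matrix protease, was at least 21.7-fold higher in JJ012 (adjusted p = 2.21e-06) and SPP1, or osteopontin, at least 8.45-fold, neither detected on a C28 array. HMOX1, a heme oxygenase gene, rose by 3.13 log2 units (SE 0.19), CCND1, or cyclin D1, by 1.70 (SE 0.12, adjusted p = 6.3e-06) and TXNIP, an inhibitor of thioredoxin, by 1.56 (SE 0.19).

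Other genes of this list were far lower in JJ012. Whether AP-1 acts on any of the listed genes in these lines was not tested. The collagenase gene MMP1 read 11.14, 11.04 and 10.81 in C28 and 8.43, 6.60 and 7.50 in JJ012. Its log2 fold change was −3.49 (SE 0.39, adjusted p = 8.98e-05). PLAU, or urokinase, fell further, at −4.33 log2 units (SE 0.48, adjusted p = 8.43e-05), and the cytokine gene IL6 was at −3.26 (SE 0.25). On JJ012 replicates 1, 2 and 3 MMP1 read 13.1%, 3.15% and 7.10% of its C28 mean, PLAU 8.50%, 1.49% and 4.46%, and IL6 12.6%, 5.30% and 7.32%. The highest percents thus lay on JJ012 replicate 1, which read a median of 9.14% of C28 over the 95 probes above. Any part of C28 signal in these values was not tested. IL1B was at least 1.88-fold and LIF at least 1.73-fold lower, neither detected on a JJ012 array. Both bounds are under 2-fold, so the 2 calls rest on fitted values below detection. IL1B lost its call without background correction, at −0.96, and LIF under 6 alternatives. PLAUR, the urokinase receptor gene, read −0.38 (adjusted p = 0.00898) without a 2-fold change. Its other measured probes read 0.10 and −0.25, with adjusted p of 0.391 and 0.261.

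**Figure D5:**
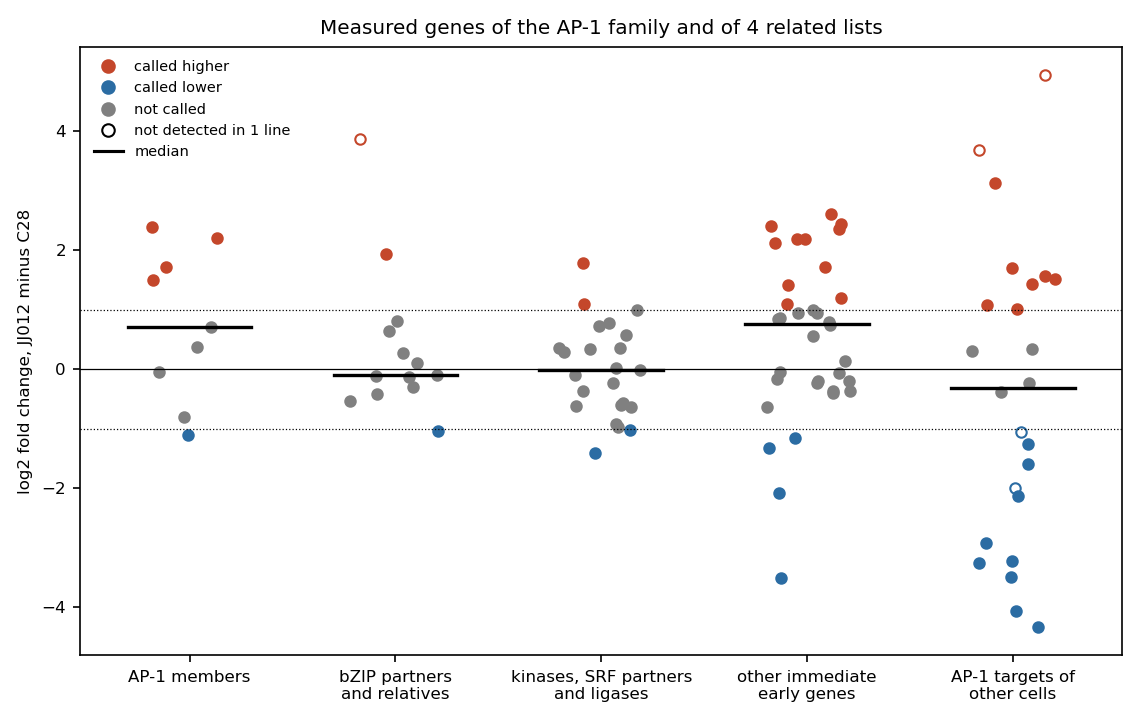
Log2 fold change of JJ012 minus C28 (y axis) for each measured gene of the AP-1 family and of 4 related lists (x axis), 1 point per gene, coloured by call, with the median as a black bar and dotted lines at 2-fold. Open points were not detected on any array of 1 line, so their fitted size is no measured fold. The AP-1 targets of other cells spread in both directions, with 9 called higher and 11 lower.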

How the data were processed

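Total RNA of 3 C28 and 3 JJ012 arrays was measured. The authors deposited a linear intensity per probe and array without scaling, and a detection fraction per probe, read as 1 minus the detection p because bright probes are at 1. They also deposited normalized log2 values, centred per probe; scale and direction were found by setting array differences against log2 intensities (slopes 0.921 to 0.988), while the authors' normalization is unknown. Its column medians were −0.001, −0.001 and 0 for C28 replicates 1, 2 and 3 and −0.003, 0.004 and 0.003 for JJ012. It served as an alternative.

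The neqc function of limma 3.58.1, run in R 4.3.3, corrected background and made quantiles equal (offset 16, negative controls inferred from detection values). JJ012 was compared with C28 by lmFit and eBayes, two-sided, with Benjamini-Hochberg adjustment over 19384 measured probes. The fit was tested on simulated data. Symbols came from the platform annotation, updated through Entrez identifiers to RefSeq GRCh38.p14. Of all probes 30113 had 1 symbol, 8 several and 17110 none, and 30074 matched RefSeq. A gene undetected in 1 line got a bound: the bright line's mean against the mean, per dim array, of the higher of the probe's signal and the lowest detected signal. The percents of C28 on JJ012 arrays were measured on intensities less each array's median over the probes with the lowest detection values. That is a narrower set than all undetected probes. The 95 probes had at least 1000 in C28 on that scale.

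Named genes were the 9 members; from each list the 3 largest calls per direction among genes detected on all 6 arrays and up to 2 per direction detected in 1 line; EGR1, MYC, MAPK8, SRF, FBXW7, MMP1, PLAUR and CCND1; and the 5 genes nearest to FOS. Members and lists were chosen with earlier results of these data known. No batch is labelled, and the number of arrays limits precision.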

Additional observations from a re-analysis of the deposited data

How the results depend on the processing

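The 4 AP-1 genes called higher numbered 4 under every alternative but 2, with 3 when JJ012 replicate 2 stood alone for JJ012 and FOSB read 0.87, and 5 with no minimum fold. The count of AP-1 genes called lower, 1, became 2 with median scaling and with no minimum fold, and 0 with JJ012 replicate 2 alone, and ran from 0 (without JJ012 replicate 3) to 1 when each array was left out. Called AP-1 probes numbered 8 with no minimum fold against 5. ATF3, not called, turned to 0.031 with array weights and ran from −0.28 (without JJ012 replicate 1) to 0.25 (without JJ012 replicate 2), with −0.64 when JJ012 replicate 2 stood alone, and SRF ran from −0.18 to 0.0025 (without C28 replicate 3). Of the bZIP partners, the 2 higher became 1 with the filter on all 6 arrays and 4 with no minimum fold. The 1 lower became 0 without background correction, with normexp without negative controls, with the authors' normalized values and with array weights, 2 with no minimum fold, and ran from 0 (without C28 replicate 3 or JJ012 replicate 2) to 1 when each array was left out. Of the upstream genes, the 2 higher became 1 without background correction, with normexp, median scaling, the authors' values and JJ012 replicate 2 alone, and 8 with no minimum fold, and ran from 1 (without JJ012 replicate 3) to 3 when each array was left out. The 2 lower became 1 without background correction, with normexp and with the authors' values, 4 with median scaling and 9 with no minimum fold, and ran from 1 (without C28 replicate 2) to 3 when each array was left out. The other immediate early genes numbered 19 higher and 7 lower with no minimum fold, against 11 and 4. With the filter on all 6 arrays the AP-1 targets numbered 6 higher and 7 lower, against 9 and 11. The cause of these changes was not tested, except that the filter on all 6 arrays tests fewer genes and that counts with no minimum fold differ only in that limit. Over all genes 1574 were higher and 2025 lower, 973 and 1279 without background correction, 1014 and 1043 with the filter on all 6 arrays, 3925 and 4356 with no minimum fold, and 1233 and 2503 with median scaling. The replicate numbers did not pair the arrays, with correlations of deviations of −0.04, −0.07 and 0.05 over 19384 probes for numbers 1, 2 and 3. With the replicate number as a block 4 AP-1 genes were higher and 1 lower, as without it, and no named gene changed its call. Probes near background, such as the dimmest of MAFF, have the least certain size.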
